A study of Homo sapiens with 6 samples.

Results

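Kinesin motor genes were examined in RNA sequencing of MDA-MB-231 cells, an established human breast adenocarcinoma line, 24 h after ionising radiation. The members were the protein-coding genes whose symbol is KIF or KIFC followed by a number and at most a letter from A to C. This rule used names alone and took 42 of the 58735 genes in the table. From their best-known roles, 14 were classed as mitotic, 15 as transport and 13 as other kinesins.

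The study compared 3 libraries of cells left at 0 Gy with 3 libraries of cells given 10 Gy from a caesium irradiator, all from polyA RNA. The labels give the genotype as WT in all 6 libraries and the library names as SCR, and the study's data statement places the series among its shSCR (non-targeting shRNA control) and shMAFF cells. The labels do not say that replicates came from separate cultures, so p-values measure the spread between these libraries, which may be technical. Levels are FPKM, the reads on a gene per unit of its length, scaled by a depth for its library. The libraries held 15643641 to 28861781 reads on genes. The depth implied by the deposited values was 0.973 to 0.991 times these reads at 0 Gy and 1.03 to 1.04 times at 10 Gy. The deposited scaling therefore differed with dose. Changes under other scalings are given below, and which scaling is right was not tested. In bulk RNA, fewer cells of a type and less RNA per cell cannot be told apart.

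Markers of the line were checked first. At 0 Gy, VIM (vimentin) was at 294 to 312 FPKM and CD44 at 76.3 to 81.4 FPKM, ERBB2 was at 6.76 to 7.51 FPKM, the epithelial genes EPCAM and CDH1 were at most 1.51 FPKM, and the hormone receptor genes ESR1 and PGR were at or near 0. Of 5 markers of cells that the culture should lack, CD3E was at 0 in all libraries and PTPRC and DCN were at or near 0. COL1A1 (2.98 to 3.11 FPKM at 0 Gy, 4.05 to 4.34 at 10 Gy) and PECAM1 (1.22 to 1.23 and 1.88 to 1.97 FPKM) were higher after 10 Gy. The 5 markers summed to 4.20 to 4.34 FPKM at 0 Gy and 6.01 to 6.23 FPKM at 10 Gy, and their part in the kinesin results was not tested.

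Kinesins are motor proteins that use ATP to move along microtubules or to take microtubules apart. Mitotic kinesins build the spindle, move chromosomes and complete cytokinesis, and many of their genes are transcribed mainly in the G2 and M phases of the cell cycle. Transport kinesins carry vesicles, organelles and RNA, largely towards the microtubule plus end, and serve dividing and resting cells alike.

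Many cell cycle promoters carry the CCAAT box bound by NF-Y and the CHR element TTTGAA near the start site. Of the 42 kinesins, 34 had a promoter in the RefSeq table (GRCh38.p14), counted from 250 bases before to 50 bases after a start site. A gene can have several start sites and so several windows. The 6 windows shown run from 150 bases before the start site through 25 bases from it. They were chosen as the mitotic kinesin with the largest rise (KIF20A), others that rose (KIF14, KIF4A, KIF2C), one that was lower (KIFC1) and the most abundant kinesin (KIF5B). Capitals mark CCAAT and TTTGAA on either strand, so that the inverted forms read ATTGG and TTCAAA. KIF20A (chr5:138178962-138179136), KIF4A (chrX:70289954-70290128), KIF2C (chr1:44739687-44739861) and KIFC1 (chr6:33391673-33391847) lie on the plus strand, and KIF14 (chr1:200620727-200620901) and KIF5B (chr10:32056401-32056575) on the minus strand.
KIF20A: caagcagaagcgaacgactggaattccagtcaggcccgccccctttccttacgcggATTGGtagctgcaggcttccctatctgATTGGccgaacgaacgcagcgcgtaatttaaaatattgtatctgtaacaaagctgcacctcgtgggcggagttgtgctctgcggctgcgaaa
KIF14: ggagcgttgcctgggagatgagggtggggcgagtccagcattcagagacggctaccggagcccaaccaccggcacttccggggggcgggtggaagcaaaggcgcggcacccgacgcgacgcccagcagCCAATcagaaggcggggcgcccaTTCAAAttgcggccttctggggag
KIF4A: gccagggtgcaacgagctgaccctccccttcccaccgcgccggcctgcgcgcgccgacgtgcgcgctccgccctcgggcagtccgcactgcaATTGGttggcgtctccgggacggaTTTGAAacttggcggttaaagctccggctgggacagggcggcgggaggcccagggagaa
KIF2C: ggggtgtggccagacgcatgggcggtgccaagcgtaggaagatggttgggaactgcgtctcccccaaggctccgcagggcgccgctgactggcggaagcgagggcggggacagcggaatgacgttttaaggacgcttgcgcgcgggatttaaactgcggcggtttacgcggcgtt
KIFC1: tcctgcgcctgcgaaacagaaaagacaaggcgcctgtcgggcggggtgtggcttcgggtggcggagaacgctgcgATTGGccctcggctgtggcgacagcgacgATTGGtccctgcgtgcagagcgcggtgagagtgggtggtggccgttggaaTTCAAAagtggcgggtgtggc
KIF5B: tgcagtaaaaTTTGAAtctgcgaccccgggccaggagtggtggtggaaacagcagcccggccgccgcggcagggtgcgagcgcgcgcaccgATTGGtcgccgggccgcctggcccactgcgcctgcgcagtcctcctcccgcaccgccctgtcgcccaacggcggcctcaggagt

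In these windows KIF20A held a pair of inverted CCAAT boxes and no TTTGAA, whereas KIF14 and KIF4A held both elements close to the start site. KIF2C, whose transcript rose, held neither exact sequence. Near matches to TTTGAA, such as tttaaa in the windows of KIF20A and KIF2C, were not counted. These counts therefore do not show that either gene lacks a working element, and the part of the elements in the rises was not tested. Over all 250-to-50-base windows of the table, 34.6% held CCAAT, 15.2% held TTTGAA and 5.90% held both. Over the windows of genes tested, these shares were 35.0%, 10.3% and 4.17%. Among mitotic kinesin windows, 11 of 15 held CCAAT, 10 of 15 held TTTGAA and 9 of 15 held both. Transport kinesins held CCAAT in 5 of 16 windows and TTTGAA in 1 of 16, that of KIF5B, and other kinesins held them in 4 of 12 and 0 of 12. The E2F-type motif GGCGGGAA, at 3.16% of all windows and 4.93% of those of genes tested, was in 0 kinesin windows. Both strands were searched, and no match overlapped another in a kinesin window.

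The elements were also found in mitotic kinesins that did not rise. Of the 6 windows of mitotic kinesins that rose, 5 held CCAAT and 4 held TTTGAA, against 6 and 6 of the 9 windows of the others. Those others include overlapping windows of KIF22, and KIF2B and KIF4B, which were not tested. KIF4B is a close retrocopy of KIF4A and held both elements, as KIF4A did, so these windows are not independent. In mitotic kinesins, CCAAT began between 202 and 21 bases before the start site (positions -202 to -21), and TTTGAA between positions -55 and 30. Elsewhere, CCAAT of KIF5C began at -222 and TTTGAA of KIF5B at -140. A match describes the letters of the window and not binding.

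**Figure D1:**
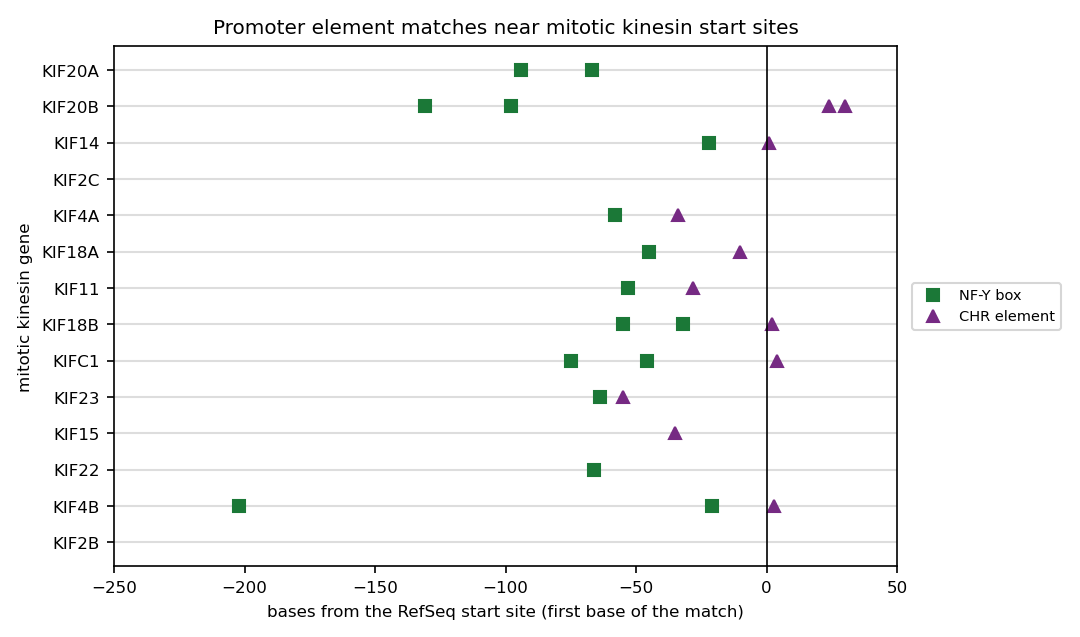
Positions of the CCAAT box (NF-Y box, squares) and of TTTGAA (CHR element, triangles) in the promoters of the 14 mitotic kinesins, in bases from the RefSeq start site. Genes run from the largest rise at the top to the largest fall, with KIF4B and KIF2B, which were not tested, last. KIF2C and KIF2B have no match, and 9 genes have both elements.

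At 0 Gy, kinesin RNA was mostly mitotic. The mitotic kinesins summed to 362 to 371 FPKM per library, 58.8% to 59.5% of all kinesin FPKM, and the transport kinesins to 216 to 218 FPKM, 34.8% to 35.4%. Of the 42 kinesins, 28 reached a mean of 1 FPKM over the 6 libraries. They were 12 of 14 mitotic, 11 of 15 transport and 5 of 13 other kinesins. The same mean was reached by 10491 of the 19951 protein-coding genes. KIF5B, the kinesin-1 heavy chain of most cells, was the most abundant, at 99.7, 102 and 103 FPKM in 0 Gy replicates 1, 2 and 3. It alone made up 46.2% to 47.2% of transport kinesin FPKM at 0 Gy. Next came the mitotic KIFC1 (55.1 to 56.0 FPKM), KIF20A (46.9 to 50.3 FPKM), KIF11 (42.3 to 47.2 FPKM) and KIF2C (42.6 to 45.0 FPKM). KIFC1 lay above all 3 others in each library at 0 Gy, whereas the ranges of KIF20A and KIF11, and those of KIF11 and KIF2C, overlapped.

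**Figure D2:**
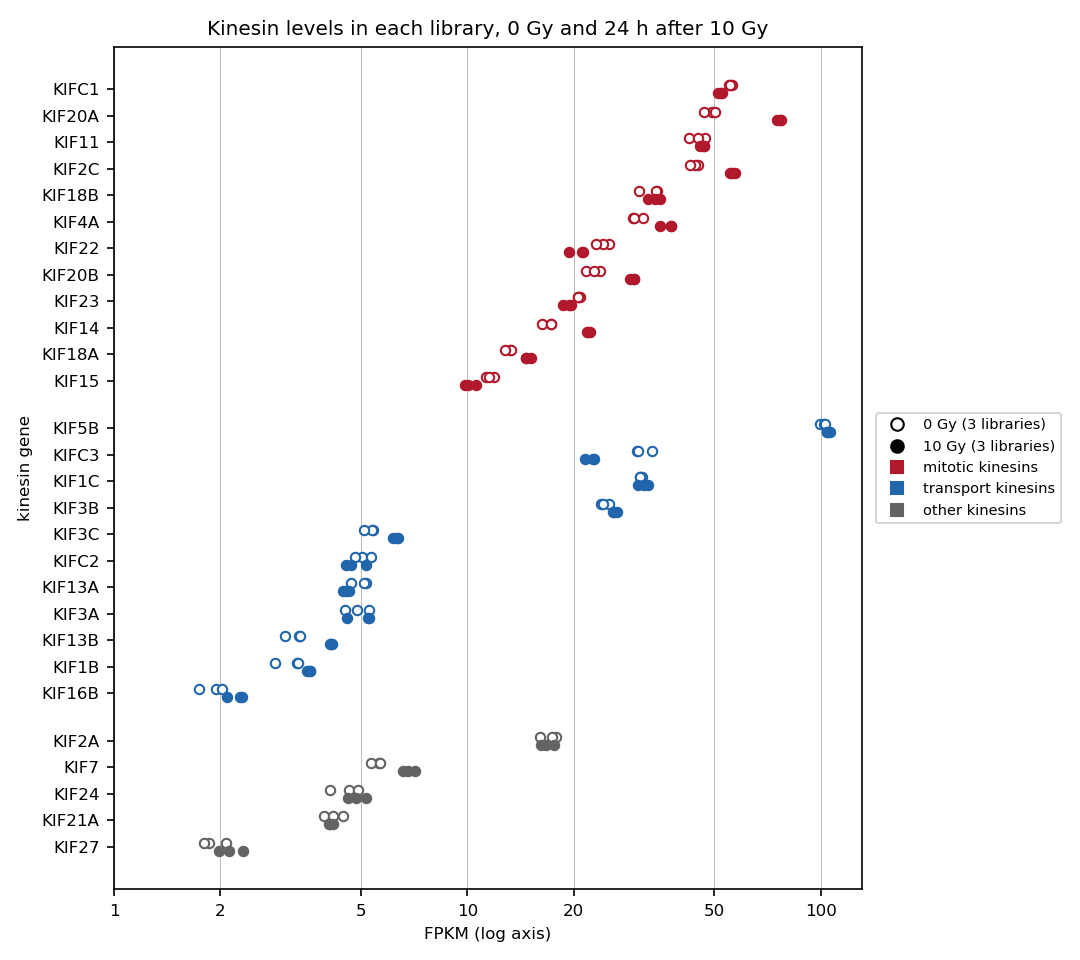
FPKM (log axis) of the 28 kinesins with a mean of at least 1 FPKM, with 1 point per library, open for 0 Gy and filled for 10 Gy, coloured by class. The 3 filled points of KIF20A sit at 75.3 to 77.2 FPKM, to the right of its open points, and those of KIFC3 sit at 21.6 to 22.9 FPKM, to the left.

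After 10 Gy, mitotic kinesins that rose kept their call under every scaling tried, and those that fell did not. Of the 12 tested with the deposited values, 6 rose (KIF20A, KIF20B, KIF14, KIF2C, KIF4A and KIF18A), 4 fell (KIF22, KIF15, KIF23 and KIFC1) and 2 did not pass the test (KIF11 and KIF18B). Under upper quartile scaling 6 rose and 1 fell, under TPM scaling 7 rose and 0 fell, and without 10 Gy replicate 1 or 10 Gy replicate 3 only 1 fell. Genes with an adjusted p under 0.05 were counted, from limma on log2(FPKM + 1) with Benjamini-Hochberg adjustment over the 12128 genes tested. On this scale the change of low genes is understated. With the deposited values, 11.9% of all genes tested rose and 23.7% fell, 35.6% in all. Of the 28 kinesins tested, 14 passed in either direction. By the rule all kinesins are protein-coding, and the share among such genes was higher. In a fit of the 10491 protein-coding genes alone, 1554 rose and 3138 fell, 44.7% in all. Under upper quartile scaling 2556 of all genes tested rose and 1444 fell, and under TPM scaling 3113 rose and 1066 fell. The mitotic median was 0.11 on the log2 scale, against -0.04 over all genes tested. With the deposited values, KIF20A alone among mitotic kinesins also changed by at least 1.3-fold, which 2.82% of all genes did upwards and 2.95% downwards, 5.77% in all. Under upper quartile scaling KIF20B (log2 change 0.445), KIF14 (0.443) and KIF2C (0.441) were past 1.3-fold too, as was KIF4A under TPM scaling (0.418). Outside the mitotic class, KIF13B (0.438) and KIF7 (0.410) were past it under TPM scaling. KIFC3 was past it with the deposited values, but not under upper quartile (-0.376) or TPM scaling (-0.350). The share of all genes past 1.3-fold was counted with the deposited values alone. The median of all genes was higher under these scalings, at 0.04 (upper quartile) and 0.08 (TPM).

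KIF20A (MKLP2, ENSG00000112984, chromosome 5, 138178719 to 138187715, plus strand), a kinesin-6, brings the chromosomal passenger complex to the central spindle. Its level was 49.3, 50.3 and 46.9 FPKM in 0 Gy replicates 1 to 3 and 77.2, 75.3 and 76.6 FPKM in 10 Gy replicates 1 to 3. Every irradiated library lay above every control, and the ratio of the means was 1.56 (log2 change 0.64, SE 0.03, adjusted p = 0.000257). Its share of all kinesin FPKM went from 7.62% to 8.06% at 0 Gy to 11.2% to 11.5% at 10 Gy. Of its exonic bases, 3.34% are shared with BRD8 (log2 change 0.25) and 1.72% with CDC23 (log2 change -0.15) on the opposite strand, and the strand setting of the counting is not given in the sources used here.

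The other kinesin-6 genes differed from each other. KIF20B, which acts late in cytokinesis, was at 21.7, 23.7 and 22.8 FPKM at 0 Gy and at 29.7, 29.5 and 28.8 FPKM at 10 Gy, with no overlap (log2 change 0.36, SE 0.04, adjusted p = 0.00108). KIF23 (MKLP1), the motor subunit of centralspindlin, which bundles the midzone, was at 20.8, 20.6 and 20.5 FPKM at 0 Gy and at 18.7, 19.7 and 19.3 FPKM at 10 Gy. All its irradiated libraries were lower, by 0.10 on the log2 scale (log2 change -0.10, SE 0.03, adjusted p = 0.0444), a difference that did not pass without any 1 of the 6 libraries (adjusted p 0.0689 to 0.16) and turned to 0.02 under TPM scaling. Within each library, KIF20A stood at 2.28 to 2.44 times KIF23 at 0 Gy and at 3.83 to 4.14 times at 10 Gy. That ratio does not depend on the scaling of libraries, and the pair was chosen after its values were seen and was not tested.

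KIF14, a kinesin-3 of the midbody that binds citron kinase, was at 16.3, 17.3 and 17.3 FPKM at 0 Gy and at 21.7, 21.9 and 22.2 FPKM at 10 Gy (log2 change 0.36, SE 0.03, adjusted p = 0.000772). KIF2C (MCAK), a kinesin-13 that takes microtubules apart at centromeres and kinetochores, was at 45.0, 44.0 and 42.6 FPKM and then at 55.5, 57.0 and 56.2 FPKM (log2 change 0.35, SE 0.03, adjusted p = 0.000696). In both, the groups were far apart, the lowest irradiated library of KIF2C lying 23.3% above the highest control. The chromokinesin KIF4A, of chromosome arms and the midzone, was at 31.5, 29.3 and 29.5 FPKM and then at 37.8, 35.1 and 37.8 FPKM (log2 change 0.28, SE 0.04, adjusted p = 0.00331). KIF18A, a kinesin-8 that dampens chromosome oscillation at the metaphase plate, was at 13.2, 13.3 and 12.7 FPKM and then at 14.7, 15.1 and 14.6 FPKM (log2 change 0.17, SE 0.03, adjusted p = 0.00847). Neither gene's groups overlapped, and KIF18A had the smallest rise of the 6.

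Among the mitotic kinesins that were lower, KIF22 (Kid), also a chromokinesin, was at 25.2, 24.2 and 23.1 FPKM at 0 Gy and at 21.0, 19.4 and 21.2 FPKM at 10 Gy (log2 change -0.22, SE 0.05, adjusted p = 0.0111). KIF15, a kinesin-12 that can stand in for KIF11 on the spindle, was at 11.3, 11.9 and 11.5 FPKM and then at 9.86, 10.6 and 10.0 FPKM (log2 change -0.17, SE 0.04, adjusted p = 0.0159). KIFC1 (HSET), a minus-end kinesin-14 that focuses spindle poles and clusters extra centrosomes, was at 56.0, 55.1 and 55.3 FPKM and then at 52.2, 52.7 and 51.0 FPKM (log2 change -0.09, SE 0.03, adjusted p = 0.0377). The groups did not overlap for any of them, but these differences were smaller than most of the rises. KIF15 did not pass without 10 Gy replicate 1 (adjusted p = 0.0636) or 10 Gy replicate 3 (adjusted p = 0.0546), nor under upper quartile (log2 change -0.085, adjusted p = 0.159) or TPM scaling (log2 change -0.055, adjusted p = 0.423). KIF22 did not pass under TPM scaling (log2 change -0.10, adjusted p = 0.0907). KIFC1 passed without 0 Gy replicate 1 and did not pass without any 1 of the other 5 libraries (adjusted p 0.0623 to 0.134), and it turned to 0.03 under TPM scaling.

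KIF11 (Eg5), the kinesin-5 that pushes spindle poles apart, was at 42.3, 47.2 and 45.1 FPKM at 0 Gy and at 45.4, 46.7 and 46.7 FPKM at 10 Gy (log2 change 0.04, SE 0.04, adjusted p = 0.444). KIF18B, the kinesin-8 at the tips of astral microtubules, was at 30.7, 34.4 and 34.3 FPKM and then at 33.9, 35.0 and 32.3 FPKM (log2 change 0.03, SE 0.05, adjusted p = 0.697). The groups overlapped in both genes. KIF4B, a close retrocopy of KIF4A whose reads could be split with it, had 2 to 14 reads per library, and KIF2B had 0.

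**Figure D3:**
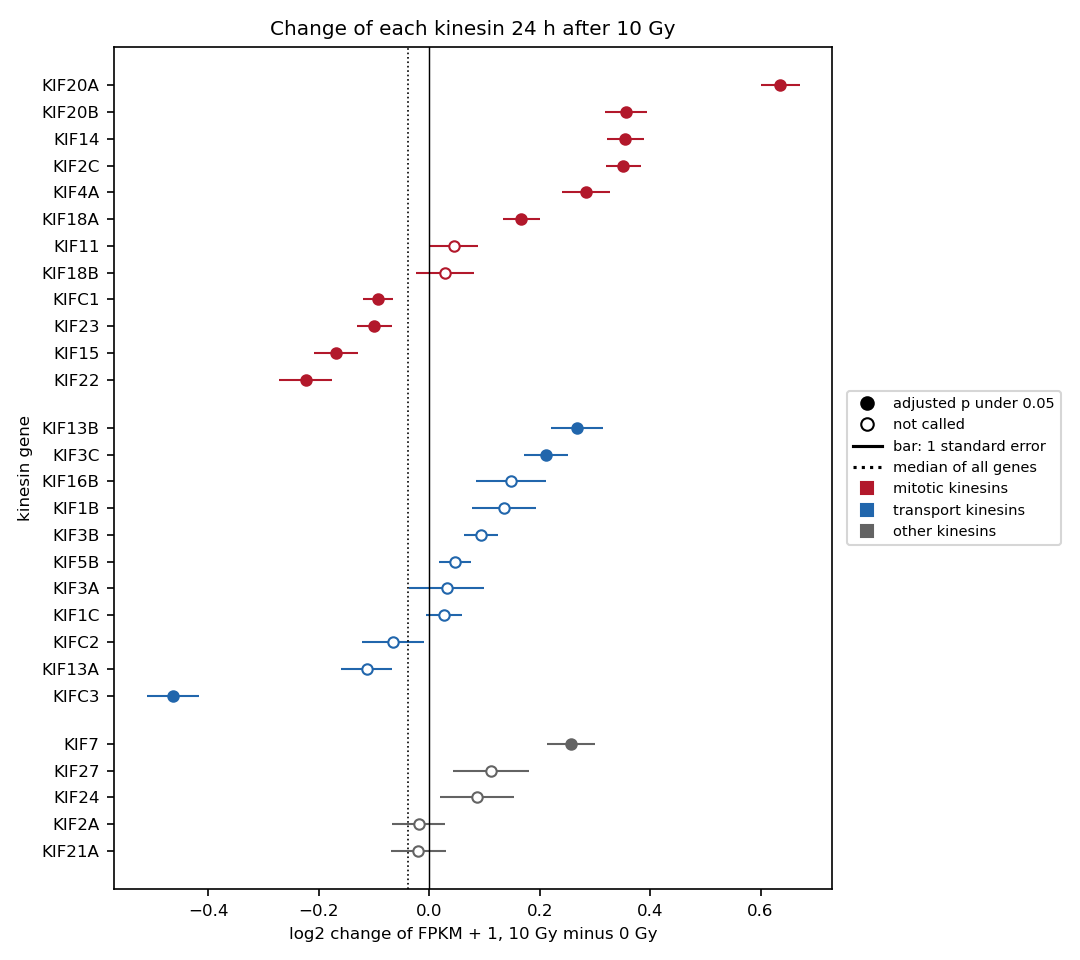
Log2 change (FPKM + 1, 10 Gy minus 0 Gy) of each kinesin tested, with bars of 1 standard error, filled where adjusted p was under 0.05, beside the median of all genes (dotted, -0.04). KIF20A lies at 0.64 and KIFC3 at -0.46, and KIF23 and KIFC1, at -0.10 and -0.09, were above 0 under TPM scaling.

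How many transport kinesins passed the test depended on the scaling and on the model fitted. Of the 11 tested with the deposited values, 2 rose (KIF13B and KIF3C), 1 fell (KIFC3) and 8 were not called, with a median log2 change of 0.05. Over all genes tested, 11.9% rose and 23.7% fell, 35.6% in all. Under upper quartile and under TPM scaling 7 transport kinesins rose and 1 fell. With voom on recovered reads, a different model that kept the depths of the deposited values, 5 rose and 2 fell. Of all 12128 genes tested, 2556 rose and 1444 fell under upper quartile scaling (33.0% in all). Under TPM scaling 3113 of them rose and 1066 fell (34.5%), and with voom 1818 rose and 3343 fell (42.6%). Summed FPKM was 216 to 218 at 0 Gy and 215 to 216 at 10 Gy, whereas the mitotic sum was 417 to 418 FPKM at 10 Gy. As a share of all kinesin FPKM, transport kinesins made up 32.2% in each irradiated library and mitotic kinesins 62.3% to 62.4%. No test was made of the difference between the classes.

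KIFC3 (ENSG00000140859, chromosome 16, 57758217 to 57863053, minus strand), a minus-end kinesin-14, had the largest fall of the 28 kinesins tested. It was at 33.4, 30.1 and 30.3 FPKM at 0 Gy and at 22.7, 22.9 and 21.6 FPKM at 10 Gy. The highest irradiated library lay 24.1% below the lowest control (gap -24.1%), and the ratio of the means was 0.715 (log2 change -0.46, SE 0.05, adjusted p = 0.000901). KIFC1, of the same subfamily, stood at 1.68 to 1.83 times KIFC3 within each control library and at 2.30 to 2.37 times within each irradiated one, a pair chosen after its values were seen.

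KIF13B, a kinesin-3 of vesicles, was at 3.06, 3.34 and 3.35 FPKM at 0 Gy and at 4.07, 4.14 and 4.12 FPKM at 10 Gy (log2 change 0.27, SE 0.05, adjusted p = 0.00577). KIF3C, a kinesin-2 motor subunit, was at 5.41, 5.39 and 5.09 FPKM and then at 6.31, 6.18 and 6.37 FPKM (log2 change 0.21, SE 0.04, adjusted p = 0.00742). All irradiated libraries lay above all controls in both genes. The partner subunits of kinesin-2 did not pass: KIF3B was at 23.9, 25.1 and 24.1 FPKM and then at 26.0, 26.4 and 25.8 FPKM (log2 change 0.09, adjusted p = 0.0529), and KIF3A at 4.52 to 5.26 and 4.56 to 5.25 FPKM (log2 change 0.03, adjusted p = 0.742). KIF3B, whose groups did not overlap, passed in 5 of 17 other fits, which were upper quartile scaling (log2 change 0.18, adjusted p = 0.00704), TPM scaling (0.22, adjusted p = 0.00569), median of ratios scaling, voom, and the fit without 0 Gy replicate 2 (0.11, adjusted p = 0.0366).

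KIF5B was at 104, 104 and 106 FPKM at 10 Gy, above all 3 controls but by little (log2 change 0.05, SE 0.03, adjusted p = 0.243). KIF1C, a kinesin-3 of vesicles, overlapped between doses at 30.7 to 31.3 and 30.5 to 32.4 FPKM (log2 change 0.03, adjusted p = 0.565). KIF1B, which carries vesicles and mitochondria, was at 2.86 to 3.31 and 3.52 to 3.60 FPKM (log2 change 0.14, adjusted p = 0.107), and KIF16B, of early endosomes, at 1.74 to 2.03 and 2.09 to 2.30 FPKM (log2 change 0.15, adjusted p = 0.109). For neither KIF1B nor KIF16B did the doses overlap, and both passed under upper quartile scaling, TPM scaling and voom (adjusted p 0.0171 to 0.0409 for KIF1B and 0.0353 to 0.0498 for KIF16B). KIF5B (log2 change 0.14 and 0.18) and KIF1C (0.12 and 0.15) passed under upper quartile and TPM scaling. KIF13A, of endosomes, was at 4.69 to 5.16 and 4.45 to 4.61 FPKM (log2 change -0.11, adjusted p = 0.0979), and it passed without 0 Gy replicate 1 (log2 change -0.15, adjusted p = 0.0386) and with voom (adjusted p = 0.0471). The kinesin-14 KIFC2 overlapped, at 4.81 to 5.33 and 4.53 to 5.15 FPKM (log2 change -0.07, adjusted p = 0.395). Over all 28 kinesins tested, 13 had every irradiated library above every control and 6 had every one below, against 19.1% and 32.8% of all genes tested (51.9% in either direction).

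Of the 5 other kinesins tested, 1 rose and 0 fell. KIF7, a regulator of the Hedgehog pathway at the tip of the cilium, was at 5.63, 5.33 and 5.67 FPKM at 0 Gy and at 7.11, 6.78 and 6.57 FPKM at 10 Gy (log2 change 0.26, SE 0.04, adjusted p = 0.00498). It shares 11.8% of its exonic bases with TICRR on the opposite strand, which had a log2 change of -0.01 (adjusted p = 0.912). The rest overlapped between doses. KIF2A, a kinesin-13 depolymerase of interphase cells and spindle poles, was at 16.0 to 17.8 and 16.2 to 17.6 FPKM (log2 change -0.02, adjusted p = 0.783), and it shares 8.96% of its exonic bases with IPO11 on the same strand. KIF24, a kinesin-13 of the mother centriole (4.08 to 4.91 and 4.60 to 5.16 FPKM, log2 change 0.09), KIF21A, a kinesin-4 of the cell cortex (3.93 to 4.43 and 4.05 to 4.15 FPKM, log2 change -0.02), and KIF27, a relative of KIF7 (1.80 to 2.08 and 1.99 to 2.32 FPKM, log2 change 0.11), did not pass either (adjusted p 0.237 to 0.783).

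The remaining 14 kinesins were under a mean of 1 FPKM and were not tested. KIF1A, KIF2B, KIF12, KIF19 and KIF26A were listed at 0 in all 6 libraries. KIF9 came nearest to the limit, with a mean of 0.954 FPKM and 74 to 157 reads per library, and KIF21B followed at 0.521 to 0.809 FPKM. KIF5C, a kinesin-1 known mainly from neurons, had 19, 23 and 24 reads at 0 Gy and 67, 41 and 42 reads at 10 Gy (0.0967 to 0.162 and 0.211 to 0.244 FPKM). Its irradiated libraries all lay above its controls, but with all genes of at least 0.1 FPKM in the fit its adjusted p was 0.207. KIF4B, KIF5A, KIF6, KIF17, KIF25 and KIF26B had at most 26 reads in any library.

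Among genes that work with mitotic kinesins, rises outnumbered falls. Of 22 partners tested of 23 listed, 12 rose and 2 fell (1 under upper quartile or TPM scaling), with a median log2 change of 0.15. With the deposited values, these shares, like those of the lists that follow, stand beside 11.9% of all genes tested that rose and 23.7% that fell, 35.6% in all. HMMR, a spindle assembly factor, was at 2.70 to 2.78 FPKM at 0 Gy and 4.43 to 4.89 FPKM at 10 Gy (log2 change 0.59). CIT, the citron kinase that KIF14 binds, was at 10.3 ± 0.791 and 15.8 ± 0.454 FPKM (mean ± SD, n = 3, log2 change 0.57), AURKA, the spindle pole kinase, at 91.9 to 95.5 and 130 to 133 FPKM (log2 change 0.49), and CKAP5, a microtubule polymerase, at 45.5 to 49.5 and 58.8 to 60.4 FPKM (log2 change 0.32). The chromosomal passenger complex, which KIF20A carries, did not move as one. Its kinase AURKB fell by 0.22 on the log2 scale, from 59.2 to 62.5 FPKM to 51.7 to 52.0 FPKM, and BIRC5 (survivin) rose by 0.29 (adjusted p = 0.00117). INCENP (log2 change 0.04, adjusted p = 0.478) and CDCA8 (borealin, log2 change 0.10, adjusted p = 0.0854) were not called. The kinesins CENPE and STARD9, whose symbols the rule does not take, rose: CENPE, the kinetochore motor, by 0.21 (adjusted p = 0.0192) and STARD9, which holds pole material together, by 0.26 (adjusted p = 0.0366).

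For the partners of transport kinesins and for dynein, the minus-end motor, list medians changed sign with the scaling. Of 17 transport partners tested of 20, 4 rose and 2 fell (median -0.07, and 0.04 under TPM scaling), 35.3% in all and so close to the 35.6% of all genes. MAP7D3, a relative of the kinesin-1 cofactor MAP7, had a log2 change of -0.45, and the adaptors MAPK8IP1 and MAPK8IP3 and the kinesin light chain KLC4 had changes of 0.24, 0.21 and 0.23. Of 26 dynein and dynactin genes tested of 29, 3 rose and 5 fell (30.8% in all, median -0.05), whereas under TPM scaling 10 rose and 2 fell (median 0.08). Under TPM scaling 3113 of all 12128 genes tested rose and 1066 fell, with a median of 0.08. Less the median of all genes, dynein stood at -0.006 with the deposited values and 0.002 under TPM scaling. The transport partners stood at -0.032 and -0.037. The heavy chain DYNC1H1 rose by 0.32, from 27.5 ± 3.82 to 34.5 ± 1.99 FPKM (mean ± SD, n = 3), while ACTR1B, DYNLT1 and DYNC1LI1 changed by -0.32, -0.30 and -0.19.

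Cell cycle genes also moved after 10 Gy. Of 15 G2/M genes, 11 rose and 0 fell (median log2 change 0.25), with TOP2A at 0.25, CDK1 at 0.14 and MKI67 at 0.02 (adjusted p = 0.898). Their sum was 1041 to 1075 FPKM at 0 Gy and 1217 to 1230 FPKM at 10 Gy. All 15 DNA replication genes fell (median -0.43, and 13 of 15 under TPM scaling), PCNA from 163 to 180 FPKM to 119 to 126 FPKM, and their sum went from 784 to 838 FPKM to 620 to 642 FPKM. The part of the cell cycle in the kinesin results was not tested.

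**Figure D4:**
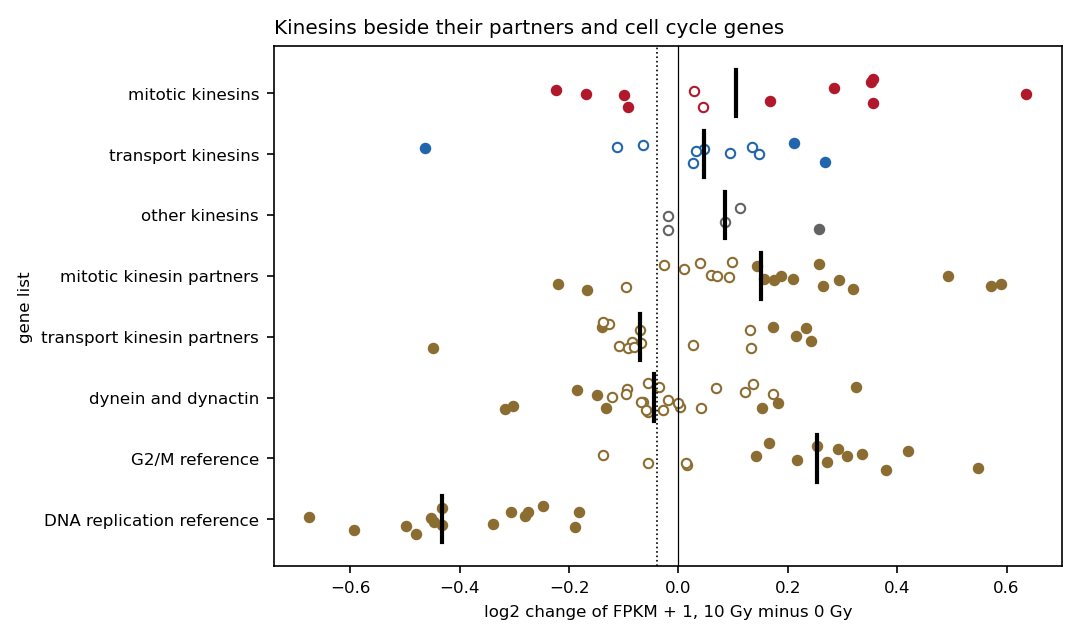
Log2 change (FPKM + 1, 10 Gy minus 0 Gy) of every gene tested in the kinesin classes and the related lists, filled where adjusted p was under 0.05, with the median of each list as a bar and that of all genes dotted (-0.04). Replication genes all lie below 0 (median -0.43) and G2/M genes mostly above (median 0.25), while mitotic kinesins lie on both sides, of which KIF23 and KIFC1 turned above 0 under TPM scaling.

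The zero point of these changes depends on how libraries are scaled. The median of all genes was -0.04 with the deposited values, 0.04 with upper quartile scaling and 0.08 with TPM, so calls shifted from 1443 higher and 2874 lower to 2556 and 1444 and to 3113 and 1066. Without 10 Gy replicate 1 the deposited values gave 875 and 1830, and without 10 Gy replicate 2 they gave 852 and 1808. Mitotic kinesins stood above the median of all genes by 0.14 with the deposited values and by 0.16 with either other scaling, and transport kinesins by 0.09 and 0.10. The mitotic counts were 6 higher and 1 lower (KIF22) under upper quartile scaling and 7 and 0 under TPM, where KIF11 passed too, and the transport counts were 7 and 1 under both. The 6 mitotic kinesins that rose, KIF13B, KIF3C and KIF7 stayed higher, and KIFC3 stayed lower, in all 17 other fits tried.

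**Figure D5:**
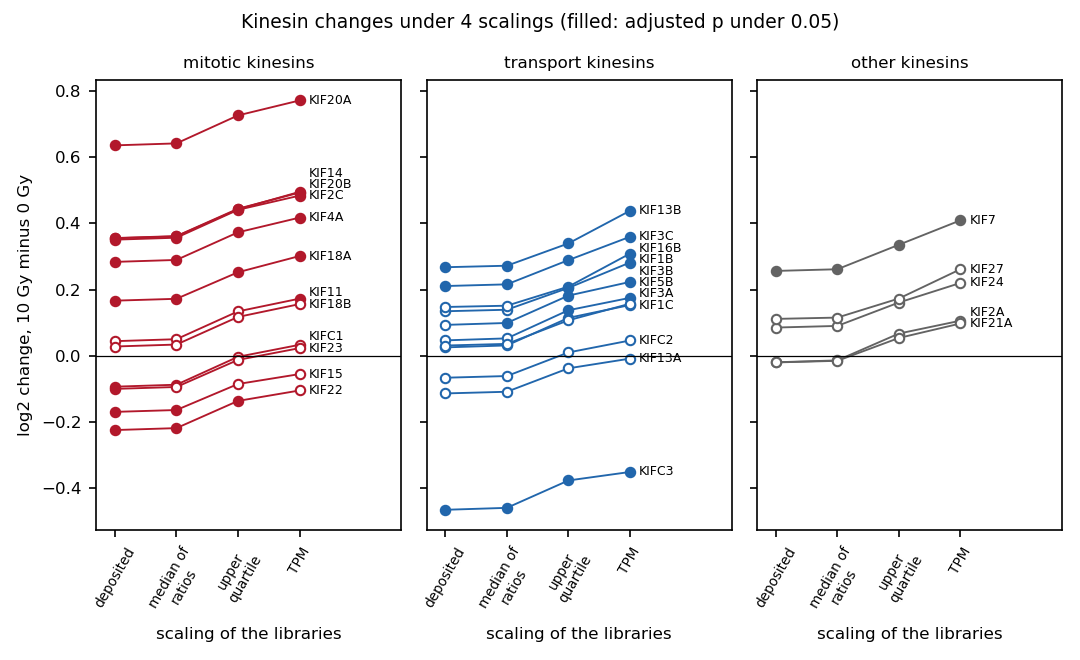
Log2 change of each kinesin tested under 4 scalings of the libraries, by class, filled where adjusted p was under 0.05. From the deposited values to TPM, all kinesins shift upwards, and KIFC1 and KIF23 pass from -0.09 and -0.10 to 0.03 and 0.02, whereas KIFC3 stays below 0.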

How the data were processed

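The authors deposited FPKM values per gene from polyA libraries of 6 samples, 3 at 0 Gy and 3 at 10 Gy. HISAT2 and GRCh38 are named in the submitters' processing notes, and the counting program is not given in the sources used here. Identifiers and coordinates equalled those of GENCODE 29 for 58724 of 58735 rows. Whole reads were recovered from FPKM, gene length and depth (100% of values within 0.02 read of a whole number), 15643641 to 28861781 per library, which limits precision for low genes.

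The 12128 genes whose mean over the 6 libraries reached 1 FPKM were compared on log2(FPKM + 1) in R 4.3.3 with limma 3.58.1 (eBayes with an intensity trend), two-sided, with Benjamini-Hochberg adjustment and a threshold of 0.05. The procedure was run on simulated reads with the same dispersion for every gene, and no result here rests on it. In the data, 0 Gy replicate 1 stood apart. The scatter of reads between libraries (chi-square per degree of freedom) was 6.60 and 7.32 against 0 Gy replicates 2 and 3. Between 0 Gy replicates 2 and 3 it was 2.38, and between 10 Gy replicates 2.00 to 3.50. The members and lists were chosen with earlier results of these data known. Every kinesin above 1 FPKM is named, and of each partner list the 4 called genes with the largest change, with CENPE, STARD9, MKI67, TOP2A, CDK1 and PCNA. Some named genes outside this rule (AURKB and its complex and genes sharing exons with a kinesin) were chosen after values were seen. Other scalings, filters, pseudocounts, voom on recovered reads and leaving out each library were tried. Promoter motifs were counted by exact match. Kinesin protein sequences were not analysed here.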

Additional observations from a re-analysis of the deposited data

How the results depend on the processing

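Over 17 other fits, 10 of the 14 kinesins called kept their call and direction in each. KIF22 kept it in 16, KIF15 in 13, KIFC1 in 7 and KIF23 in 3, and under TPM scaling KIFC1 reversed to 0.034 and KIF23 to 0.024. With no filter on low values 1815 genes and 2 mitotic kinesins fell, and without an intensity trend 2 mitotic kinesins fell. Upper quartile scaling gave 2556 genes higher and 1444 lower, 1 mitotic kinesin lower, 7 transport kinesins higher, and medians of 0.19, 0.14 and 0.16 for mitotic, transport and other kinesins. TPM gave 3113 and 1066 genes, 0 mitotic kinesins lower, 7 transport kinesins higher, and medians of 0.24, 0.18 and 0.22. With voom on recovered reads 5 transport kinesins rose and 2 fell, beside 1818 of all genes higher and 3343 lower. Counting KIF2A as mitotic gave a mitotic median of 0.045. Leaving out KIFC2 and KIFC3 gave 0 transport kinesins lower and a median of 0.094. Without 1 library at a time, 852 to 1393 genes rose and 1808 to 2630 fell, 1 to 3 mitotic and 1 to 2 transport kinesins fell, and the medians were 0.090 to 0.129 (mitotic), 0.035 to 0.087 (transport) and 0.026 to 0.119 (other). Mitotic kinesins lower were 1 without 10 Gy replicate 1 or 3, 2 without 0 Gy replicate 2, 0 Gy replicate 3 or 10 Gy replicate 2, and 3 without 0 Gy replicate 1, and transport kinesins lower were 2 without 0 Gy replicate 1. Deviations of same-numbered libraries correlated at -0.04, -0.03 and -0.10, and those of differently numbered ones at -0.05 to 0.09. With 3 libraries a group, these values cannot tell whether the libraries were set up in pairs. A replicate block in the fit gave 1137 genes higher and 2366 lower, with 2 mitotic kinesins lower (KIFC1 and KIF23 were lost). Causes of these shifts were not tested, apart from fewer samples or members by construction. The 14 kinesins under a mean of 1 FPKM were not tested, and 5 of them were at 0 in every library. Differences near 0.1 on the log2 scale rest on 3 libraries a group.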
